A study of Mus musculus with 6 samples.

Results

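The Jak, Stat and Socs3 genes named here are 9 genes of cytokine signaling, Stat2, Stat3, Stat4, Stat6, Jak1, Jak2, Jak3, Tyk2 and Socs3. They were chosen by symbol, and a gene was a member when at least 1 of its transcripts had a row in the deposited table. Of the 9 genes, 8 had a row, out of 33676 genes in all, and Jak2 had none of its 4 annotated transcripts listed and is not analysed here. The 8 genes held 25 listed transcripts of the 65535 in the table. Sequencing covered 6 RNA libraries of the cochlear modiolus, the bone around which the cochlea coils and in which the spiral ganglion neurons (SGNs) lie, from male C57BL/6 mice aged 8 weeks at the start of the experiment. The 3 control libraries came from mice given saline, and the 3 degenerated libraries from mice given 1 g/kg kanamycin and 0.4 g/kg furosemide, drugs that together kill the hair cells, and taken on day 30. No day of collection is given for the control libraries. The labels do not say whether a library is 1 mouse or a pool, so that p-values here measure the spread between these libraries.

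Janus kinases (Jak1, Jak2, Jak3 and Tyk2) sit on the inner tails of cytokine receptors and phosphorylate each other and the receptor when a ligand binds. Signal transducers and activators of transcription (Stats) then dock on the receptor, are phosphorylated, pair and move to the nucleus, where they bind DNA, and Socs3, itself a gene induced by Stat3, shuts off the receptors of the interleukin-6 family. In injured peripheral nerve, Stat3 is known as a part of the response of neurons and Schwann cells. Phosphorylation, the step that turns these proteins on, leaves no trace in RNA counts, and the values below are RNA levels only.

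The labels give the cell type as spiral ganglion neuron, but the RNA is that of the whole modiolus. All 13 SGN markers were listed, and 12 had counts in every library, while Prph had none in control replicate 1. Markers of Schwann cells, macrophages, bone and blood were also present in every library. The libraries held 12480876 to 15549319 counts. After edgeR's filter on low counts 14118 genes were tested, and 284 were called higher and 101 (0.715%) lower in degenerated libraries. A call means that the unadjusted p in edgeR's quasi-likelihood test was under 0.01 and that the log2 fold change was above 0.2 or under -0.2. No gene had a Benjamini-Hochberg adjusted p under 0.05 in that test, while 1367 had an unadjusted p under 0.05 and DESeq2 gave 314 genes an adjusted p under 0.05. The log2 fold change was positive in 7016 of the tested genes and negative in 7102. In this bulk tissue, fewer cells of a type and less RNA per cell cannot be told apart. An exact two-sided permutation test on 3 and 3 libraries cannot go below p = 0.1, and none was run.

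The count of a gene is the sum over its listed transcripts, and the table held 25 of the 57 annotated transcripts of the 9 genes and 10 of their 24 coding ones. That is 43.9% of their transcripts, against 46.0% of all annotated transcripts. A transcript with the full reading frame was listed for Stat2, Stat3, Stat4, Jak3 and Tyk2. For the other 3 it was not. The longest listed reading frame was 54 of 3459 bases for Jak1 and 340 of 2511 bases for Stat6, and the 1 listed transcript of Socs3 (Socs3-202) is noncoding. Stat3 carried 91.4% of the 26183 counts of all members, and 4 members had under 200 counts over the 6 libraries.

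Stat3, the transducer of the interleukin-6 family, is annotated on chr11:100885098-100939540 of GRCm38, on the minus strand. Of its 14 annotated transcripts 8 were listed, including 3 of the 4 coding ones. The 3 listed coding transcripts part from each other at 2 splice sites inside the reading frame, and their sequences at these sites are shown because they set the proteins apart. The forms also end at different places, and most of the bases that tell them apart lie at their 3' ends. Stat3-203 and Stat3-201 differ by 3 bases, which fall on chr11:100893074-100893076 at coding positions 2099 to 2101 of Stat3-203. Capitals mark the bases that the shorter form skips, in the direction of transcription and with 24 bases on either side.
Stat3-203: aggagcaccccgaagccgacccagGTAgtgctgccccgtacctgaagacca
Stat3-201: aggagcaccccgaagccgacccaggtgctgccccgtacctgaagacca
Stat3-202 skips the first 50 bases of exon 23 of Stat3-203, on chr11:100889541-100889590 and at coding positions 2145 to 2194. This is the beta form, known for a shorter C-terminal end, and its reading frame is 2166 bases long against 2310 in Stat3-203 and 2307 in Stat3-201.
Stat3-203, second site: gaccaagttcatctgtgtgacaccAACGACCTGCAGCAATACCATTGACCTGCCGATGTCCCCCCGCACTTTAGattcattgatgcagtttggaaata
Stat3-202, second site: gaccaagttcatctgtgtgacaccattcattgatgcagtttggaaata

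Stat3 rose. In CPM, counts scaled to the size of the library, it stood at 198, 216 and 218 in control libraries 1 to 3 and at 362, 351 and 332 in degenerated libraries 1 to 3. The lowest degenerated library lay far above the highest control library, and within each group the libraries were close together. Of all tested genes, 10.3% had every degenerated library above all controls. The means of Stat3 were 211 ± 10.9 and 348 ± 15.2 CPM (SD, n = 3 each), 1.65 times as much. Its log2 fold change of 0.73 (standard error, SE, 0.09) had a 95% interval of 0.50 to 0.95, and its unadjusted p of 2.2e-04 was rank 22 among the 14118 genes in edgeR's quasi-likelihood test. The adjusted p was 0.138. Stat3 was thus the 1 member called, of 6 tested, where 2.73% of all genes were called in either direction and 2.01% higher. The members were chosen with earlier results of these data known. Stat3 kept that call under each of 13 alternatives, between 0.67 and 0.76 on the log2 scale. Its adjusted p ranged from 8.5e-05 with DESeq2 to 0.602 in edgeR with the replicate number as a block.

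**Figure D1:**
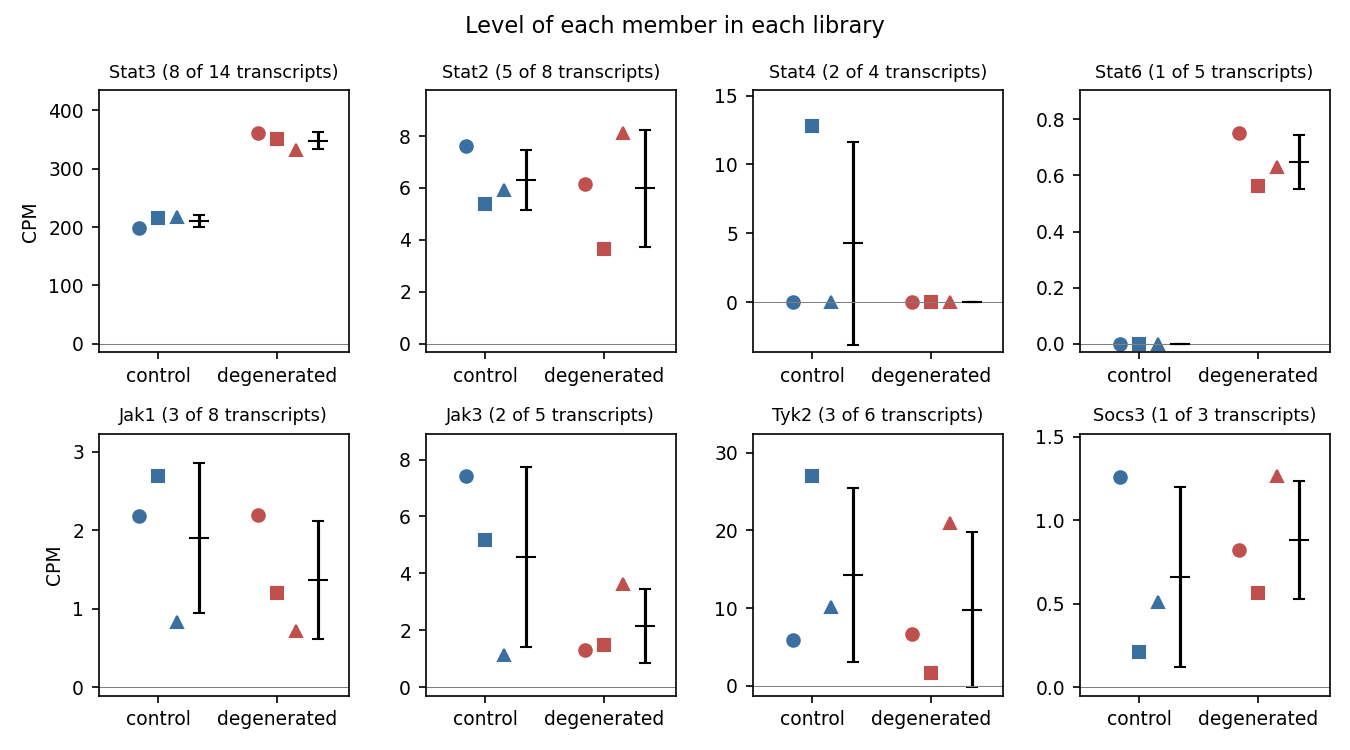
Level of the 8 listed members in each library, in CPM on linear axes with a scale of their own. Circles, squares and triangles are replicates 1, 2 and 3, and the bar beside them is the mean with its SD. The 3 degenerated libraries lay above all controls for Stat3 (332 to 362 against 198 to 218 CPM), as in 10.3% of all tested genes. They did so for Stat6 too, which had no count in control libraries and did not pass the filter on low counts. The groups overlapped in the other 6 panels.

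Other measures of the tissue moved between the groups as well. The summed level of the 13 SGN markers was 11983 to 15615 CPM in control and 7149 to 10615 CPM in degenerated libraries, and 12 of the 13 had a negative log2 fold change, with 1, Calb2, called lower. Of the 6 tested macrophage markers (7 of 11 listed, none at 0 in all 6 libraries), 2, C1qb and C1qc, were called higher. Over all tested genes 2.01% were. The log2 fold changes were positive in 4 of the 6 and negative in Cd68 (-1.54) and Itgam (-0.67). Aif1, not tested, had 15.1, 0.07 and 16.2 CPM in control and 0.14, 0 and 0 CPM in degenerated libraries. The listed macrophage markers summed to 507 to 570 CPM against 560 to 785 CPM, so that the groups overlapped. Bone markers, of which 5 of 8 were listed, summed to 479 to 681 CPM against 120 to 232 CPM, and hair cell markers (7 of 8 listed) to 471 to 671 CPM against 165 to 431 CPM. Of the 6 tested hair cell markers, 2, Ocm and Slc26a5, were called lower, where 0.715% of all tested genes were. Ocm had 150, 140 and 173 CPM against 3.90, 3.38 and 0.79 CPM. The groups overlapped in Otof, Pou4f3, Tmc1 and Myo7a, and Myo7a had a positive log2 fold change of 0.15. The part of these cells in the Stat3 difference was not tested. With the summed neutrophil markers as a covariate, an alternative chosen after the data were seen, the log2 fold change of Stat3 was 0.74. These sums overlapped between the groups (245 to 13007 against 593 to 4548 CPM). That fit holds no measure of the cell types named above.

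The 3 coding transcripts held 98.1% to 99.4% of the Stat3 counts in every library, and the rest lay in 5 retained-intron transcripts. On the transcript scale, Stat3-201 had 59.1, 87.6 and 81.8 CPM in control and 116, 127 and 122 CPM in degenerated libraries. Its groups did not overlap, and its log2 fold change was 0.68 (SE 0.18, unadjusted p = 0.0105, adjusted p = 0.557 in edgeR). The beta form Stat3-202 had 72.7, 36.5 and 63.4 CPM against 126, 90.1 and 116 CPM. It too stood above all controls in every degenerated library, with control replicate 2 the lowest, and its log2 fold change was 0.94 (SE 0.30, unadjusted p = 0.0204). Stat3-203 had 70.4, 93.8 and 73.7 CPM against 117, 125 and 87.7 CPM. Here degenerated replicate 3 fell below control replicate 2, and the log2 fold change was 0.47 (SE 0.20, unadjusted p = 0.0590). Of the retained-intron forms only Stat3-210 averaged at least 1 CPM, at 0.82, 1.74 and 0.78 CPM against 0.82, 1.46 and 3.63 CPM, with a log2 fold change of 0.82 (SE 0.68, unadjusted p = 0.277). Without degenerated replicate 3 it was 0.03.

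No listed transcript of a member was called in edgeR's test, out of 12 that were tested, where 1.79% of the 26065 tested transcripts were called, 1.14% higher and 0.652% lower. An adjusted p under 0.05 was reached by 0.0153% of all transcripts and by none of the 12, and 2 of the 12 had an unadjusted p under 0.05. With limma-voom 1 was called, Stat3-201, where it called 264 of all transcripts higher and 179 lower. With DESeq2 1 of 23 was called, Stat6-202, where it called 749 higher and 598 lower. Stat6-202 had no count in control libraries and did not pass edgeR's filter. Stat3-201 and Stat3-202 were the 2 of the 12 above all controls, as were 9.13% of all transcripts, and none lay below all controls, as did 7.24%. For Stat3 the spread between replicates differed with the scale. The coefficient of variation of the gene was 5.16% in control and 4.37% in degenerated libraries, while that of its 3 coding transcripts was 15.99% to 32.7% in control and 4.63% to 17.7% in degenerated libraries. Stat3-201 passed the criteria of a call with limma-voom (log2 fold change 0.70, unadjusted p = 0.00818) and with the neutrophil covariate (0.76, unadjusted p = 0.00197). That covariate was chosen after the data were seen. In 11 of 13 alternatives Stat3-201 stayed uncalled. Its adjusted p ranged from 0.326 with DESeq2 to 0.887 in edgeR without degenerated replicate 2.

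**Figure D2:**
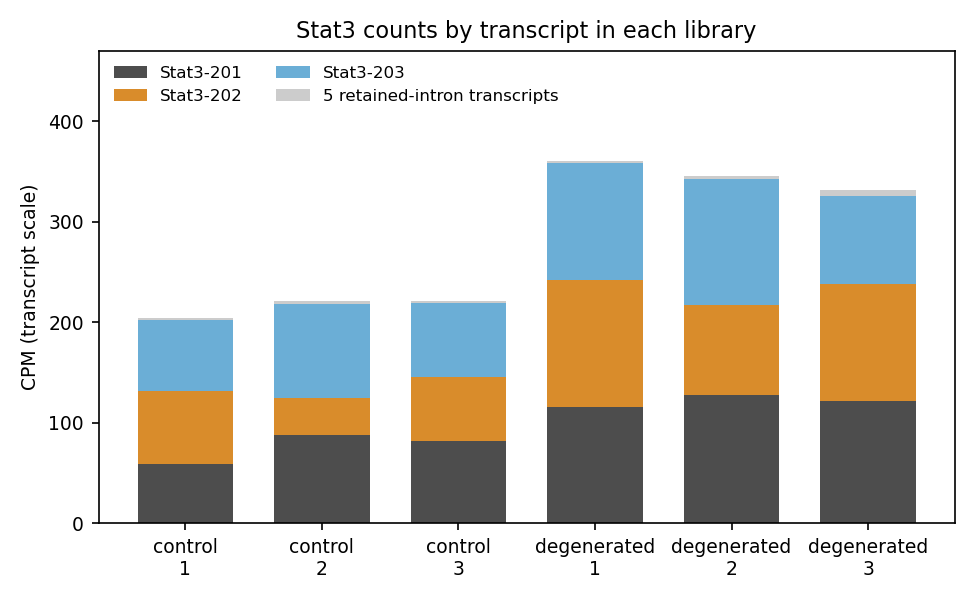
Stat3 counts by listed transcript, in CPM on the transcript scale, as stacked bars for the 6 libraries. Each of the 3 coding transcripts took a large part of every bar, between 36.5 and 127 CPM, and the 5 retained-intron transcripts a thin one.

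The share of each form in the counts of Stat3 did not differ beyond the spread. Stat3-201 took 35.2% ± 5.61 of the counts in control and 35.2% ± 2.66 in degenerated libraries (SD, n = 3 each). The beta form took 26.9% ± 9.65 and 32.0% ± 5.12. Stat3-203 took 36.7% ± 5.01 and 31.6% ± 4.86. In edgeR's test of each transcript against the other tested transcripts of its gene, the unadjusted p-values were 0.991, 0.698 and 0.741 in that order, where 1.1% of the 18255 transcripts in that test were called. The forms share most of their length. Stat3-202 has 1712 bases that Stat3-203 lacks, all of them past the 3' end of Stat3-203. Stat3-203 has 1589 bases that Stat3-201 lacks, 1426 of them past the 3' end of Stat3-201, while every base of Stat3-201 is also in Stat3-203. How many reads told the forms apart is not known from the counts. The last exon of Stat3-202 also shares 72 bases with Stat5a on the opposite strand.

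**Figure D3:**
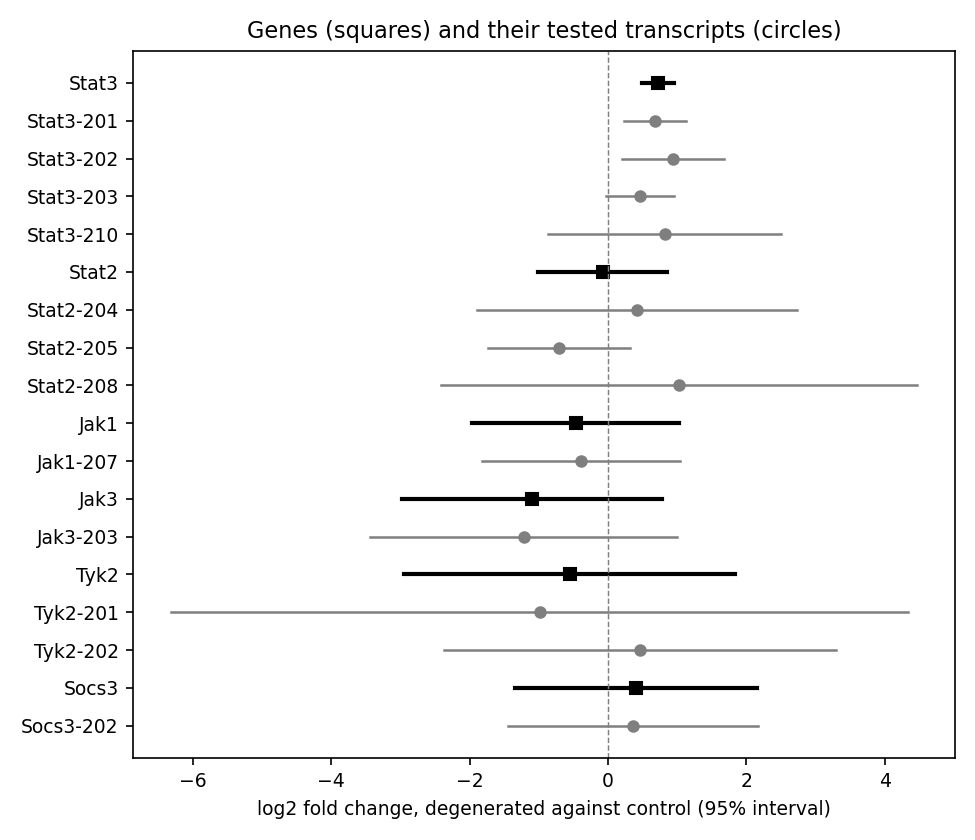
Log2 fold changes of the 6 tested members (squares) and of their 12 tested transcripts (circles), degenerated against control, with 95% intervals from the edgeR fits. The intervals of Stat3, Stat3-201 and Stat3-202 lie above 0, and all others span it.

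Stat2, which carries the signal of interferons together with Irf9, lies on chr10:128270559-128292849 of GRCm38, on the plus strand. Its level was 7.61, 5.38 and 5.93 CPM in control and 6.16, 3.66 and 8.13 CPM in degenerated libraries. The groups overlapped fully, and the log2 fold change was -0.08 (SE 0.38, 95% interval -1.01 to 0.86, edgeR adjusted p = 0.960). Most of these counts were assigned to retained-intron transcripts. Coding forms contain 94.6% of the bases of Stat2-205, 78.2% of those of Stat2-208 and 66.3% of those of Stat2-204. The coding form Stat2-201 had no row. Whether these counts came from messenger RNA is therefore not known from the table. Stat2-205 held 301 of the 529 Stat2 counts, with 5.19, 2.68 and 5.05 CPM against 3.13, 1.94 and 2.84 CPM and a log2 fold change of -0.71 (SE 0.42, unadjusted p = 0.144). The log2 fold changes of Stat2-204 (97 counts) and Stat2-208 (83 counts) were 0.42 and 1.03, with unadjusted p-values of 0.668 and 0.487. Leaving out 1 library moved Stat2-208 between 0.24 and 2.48, the lower without degenerated replicate 3 and the higher without control replicate 2. The 1 listed coding form, Stat2-202, had 1, 1 and 6 counts in control and 0, 10 and 0 in degenerated libraries.

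Stat2 has a pair of annotated coding forms that differ by 1 codon, and Stat2-201, the form without it, was not listed. The codon is the first of exon 15, on chr10:128283230-128283232 at coding positions 1252 to 1254, and it is set in capitals. The forms are otherwise the same in sequence, so reads of them can be told apart only there.
Stat2-202: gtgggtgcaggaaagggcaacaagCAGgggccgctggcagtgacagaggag
Stat2-201: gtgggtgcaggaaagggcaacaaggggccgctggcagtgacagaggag

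Stat4, the transducer of interleukin-12, lies on chr1:51987148-52107189 on the plus strand. It had 181 counts in control replicate 2 and none in the other 5 libraries, all of them in the coding form Stat4-202. It did not pass the filter, and no fold is given, since the counts came from 1 library. Of the 2662 bases of Stat4-202, 38.8% are shared with the readthrough gene Gm28177 on the same strand, which was not analysed here. The second listed transcript, Stat4-203, had no counts.

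Stat6, the transducer of interleukin-4 and interleukin-13, lies on chr10:127642986-127660957 on the plus strand. It had no count in control libraries and 11, 8 and 8 counts in degenerated libraries. These 27 counts (exact 95% Poisson interval 17.8 to 39.3, which covers counting error only) were 9.74-fold above a floor of 3 counts over the control group, which is what a count of 0 allows. At the lower end of the interval they were 6.42-fold above it. All 27 counts came from Stat6-202, a short form of 609 bases whose sequence lies wholly within the unlisted full-length Stat6-201. The level of Stat6 as a whole is therefore not known from this table. Stat6 did not pass the filter on low counts. Without the filter it met the criteria of a call in edgeR's test (unadjusted p = 0.00337, adjusted p = 0.434), and with DESeq2 its unadjusted p was 6.9e-04.

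Among the kinases, no member was called. Jak1, which serves the receptors of interleukin-6, interferons and many others, lies on chr4:101152367-101265282 on the minus strand. Its 142 counts gave 2.18, 2.69 and 0.83 CPM in control and 2.19, 1.197 and 0.71 CPM in degenerated libraries. The groups overlapped, with a log2 fold change of -0.47 (SE 0.62, 95% interval -1.97 to 1.03, edgeR adjusted p = 0.841). Nearly all of the counts, 128, were assigned to Jak1-207, a noncoding transcript of 2 exons. Its log2 fold change was -0.38 (unadjusted p = 0.535). Coding forms contain 42.7% of its bases, so whether these counts came from messenger RNA is not known. The messenger of Jak1 was not listed, so that these values are not the level of the kinase.

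Jak3, the kinase of the common gamma chain of lymphocytes, lies on chr8:71676296-71690575 on the plus strand. It stood at 7.41, 5.16 and 1.15 CPM in control and at 1.3, 1.48 and 3.63 CPM in degenerated libraries. Control replicates 1 and 2 were the highest, but control replicate 3 was the lowest of all 6. The log2 fold change was -1.10 (SE 0.77, 95% interval -2.97 to 0.78, edgeR adjusted p = 0.694). Its coding form Jak3-203, with 272 of the 289 counts, had a log2 fold change of -1.21 (unadjusted p = 0.226). The summed markers of T and natural killer cells (8 of 10 listed, none at 0 in all 6 libraries) ranged from 15.8 to 55.7 CPM in control and from 25.1 to 49.1 CPM in degenerated libraries. Their part in the level of Jak3 was not tested.

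Tyk2, which works beside the type I interferon and interleukin-12 receptors, lies on chr9:21104068-21131243 on the minus strand. Its level was 5.83, 27.0 and 10.1 CPM in control and 6.70, 1.69 and 20.9 CPM in degenerated libraries. The libraries of each group differed among themselves by more than the group means of 14.3 ± 11.2 and 9.77 ± 9.97 CPM (SD, n = 3 each) did. The log2 fold change was -0.55 (SE 0.98, 95% interval -2.94 to 1.84, edgeR adjusted p = 0.884). Its main transcripts did not share 1 pattern. The coding form Tyk2-201 had 21, 352 and 154 counts in control and 0, 2 and 234 in degenerated libraries. The retained-intron form Tyk2-202 had 64, 27 and 3 against 92, 18 and 19. Their log2 fold changes were -0.99 (SE 2.15) and 0.47 (SE 1.14), with unadjusted p-values of 0.663 and 0.697. Tyk2-201 has 3 bases of its own among the annotated Tyk2 transcripts and Tyk2-202 has 183, and 2 full-length coding forms were not listed.

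The libraries with many Tyk2-201 counts, and the 1 with Stat4-202, were also those with many counts of blood-forming cells. The markers of neutrophils and their precursors, of which 8 of 10 were listed and none stood at 0 in all 6 libraries, summed to 245, 13007 and 6426 CPM in control and to 593, 1842 and 4548 CPM in degenerated libraries. Tyk2-201 was at 1.43, 25.5 and 9.98 CPM and at 0, 0.139 and 18.5 CPM in the same libraries. Both were highest in control replicate 2, and the same 3 libraries, control replicates 2 and 3 and degenerated replicate 3, had the 3 highest values of each. Markers of red cells (5 of 7 listed, none at 0) summed to 6400, 41372 and 21417 CPM in control and to 7215, 3479 and 16706 CPM in degenerated libraries. Stat3 stood at 198, 216 and 218 CPM in control and at 362, 351 and 332 CPM in degenerated libraries. The part of blood-forming cells in the levels of Tyk2-201, Stat4-202 and Stat3 was not tested.

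**Figure D4:**
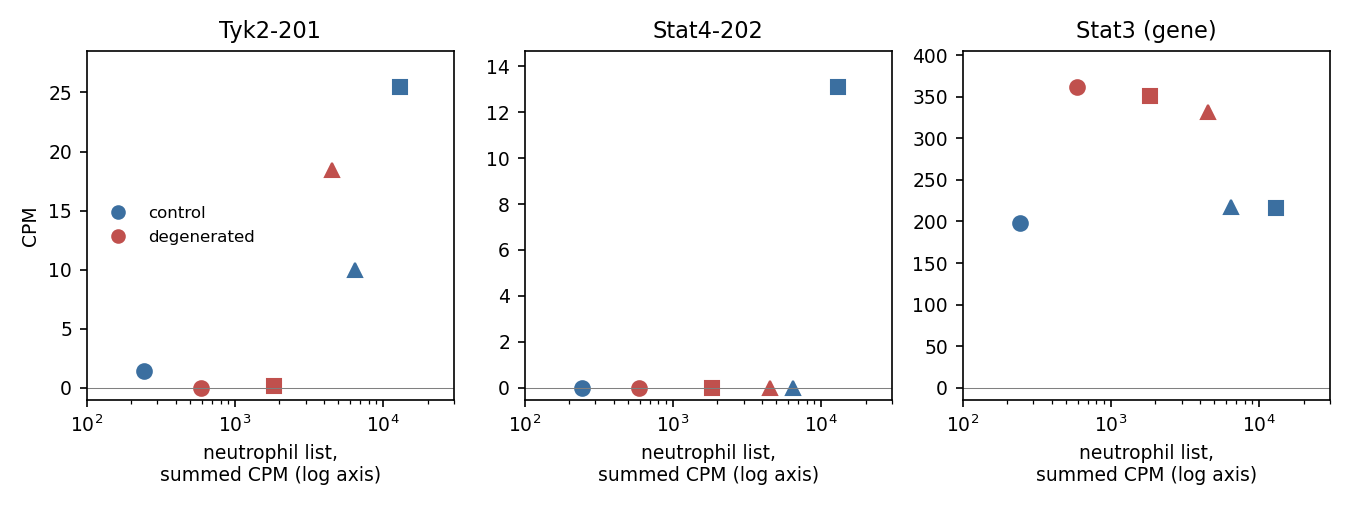
CPM of Tyk2-201, Stat4-202 and the gene Stat3 (linear axes) against the summed CPM of the listed neutrophil markers (log axis) in the 6 libraries. Blue is control, red is degenerated, and circles, squares and triangles are replicates 1, 2 and 3. Tyk2-201 was above 9 CPM only in the 3 libraries with the highest sums, and Stat4-202 was seen in 1 library. Stat3 was at 198 to 218 CPM in control and at 332 to 362 CPM in degenerated libraries.

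Socs3, the inhibitor induced by Stat3, lies on chr11:117966079-117970047 on the minus strand. It stood at 1.26, 0.21 and 0.51 CPM in control and at 0.82, 0.56 and 1.26 CPM in degenerated libraries. The groups overlapped, and the log2 fold change was 0.41 (SE 0.72, 95% interval -1.34 to 2.16, edgeR adjusted p = 0.884). These 66 counts were assigned to Socs3-202, a noncoding transcript of 490 bases in 2 exons, and the coding Socs3-201 was not listed. The coding form contains 46.5% of the bases of Socs3-202, so whether these counts came from messenger RNA is not known. The coding form itself was not analysed here.

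The promoter of Socs3 is shown since it was the 1 promoter of the 9 genes with a match to a Stat motif. The letters TTCNNNGAA, a palindrome bound by Stat dimers that reads the same on both strands, were searched in the 300 bases from 250 before to 50 after the start of each gene, taken from RefSeq on GRCm38.p6. All 9 genes, Jak2 included, were found there by symbol. Socs3 held 1 match, 154 bases before its RefSeq start, in the window chr11:117969317-117969616 (minus strand), and the other 8 held none. The coding Socs3-201 is annotated on chr11:117966079-117969186. The window lies wholly upstream of it, and the bases next to its start were not searched. Of all 32851 promoters, 8.3% (2726) held at least 1. The match is set in capitals. It lies in the intron of Socs3-202, which starts further upstream.
Socs3 promoter, part: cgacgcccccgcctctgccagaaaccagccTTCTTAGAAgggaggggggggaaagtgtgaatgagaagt

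Levels were compared between genes as CPM per kilobase of listed transcript (RPKM), summed over the transcripts of a gene. In control libraries Stat3 had 56.1 ± 5.10 RPKM, followed by Stat2 with 4.67 ± 1.17, Jak1 with 3.93 ± 2.06, Tyk2 with 3.20 ± 2.44, Stat4 with 1.603 ± 2.78, Socs3 with 1.35 ± 1.10, Jak3 with 1.14 ± 0.79 and Stat6 at 0 (SD, n = 3). Stat3 lay above all others in every library, and from Stat2 down to Jak3 each gene overlapped its neighbor in that order. In degenerated libraries Stat3 had 91.7 ± 2.48 RPKM. Stat2 followed with 5.26 ± 2.74, Jak1 with 2.74 ± 1.53, Tyk2 with 2.45 ± 2.35, Socs3 with 1.80 ± 0.72, Stat6 with 1.07 ± 0.16 and Jak3 with 0.54 ± 0.32, and Stat4 was at 0. Each value is that of the listed transcripts only, which differ in kind between the genes.

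Of 20 tested genes among the other family members and negative regulators, 0 were called in edgeR's test, with DESeq2 or with limma-voom, and their median log2 fold change was 0.16, against -0.0034 over all tested genes. None had an unadjusted p under 0.05, and the smallest, 0.109, was that of Ptpn11, a phosphatase that binds cytokine receptors, with a log2 fold change of 0.19. Stat5a and Stat5b, transducers of growth hormone and prolactin among others, had log2 fold changes of 0.15 (SE 0.19, edgeR adjusted p = 0.840) and 0.16 (SE 0.11, adjusted p = 0.684). Stat5b, at 139, 159 and 169 CPM against 169, 181 and 173 CPM, lay above all controls, as did 10.3% of all tested genes.

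Upstream of the kinases, 2 of 10 tested ligands were called higher and none lower, where 2.01% of all genes were called higher. Both belong to the interleukin-6 family. Lif, a cytokine that acts on neurons and glia through the Lifr and Il6st receptors, had 2.65, 4.74 and 2.42 CPM in control and 9.10, 16.8 and 11.8 CPM in degenerated libraries. Il11 had 1.13, 0.85 and 0.83 CPM against 2.94, 3.52 and 3.55 CPM. In both of them the lowest degenerated library lay above the highest control library, as in 10.3% of all tested genes. The log2 fold changes were 1.94 (SE 0.42) for Lif and 1.83 (SE 0.33) for Il11, with edgeR adjusted p-values of 0.307 and 0.240. Il11 kept its call without any 1 library. Lif lost it without control replicate 1, control replicate 3 or degenerated replicate 2 (unadjusted p = 0.0140, 0.0142 and 0.0133). The list of ligands had 25 genes, of which 18 had a row, and its median log2 fold change was -0.27. This list too was chosen with earlier results of these data known.

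Of 28 receptors that use Jak kinases, 25 had a row and 21 were tested. In edgeR's test 0 were called and 2 had an unadjusted p under 0.05, limma-voom called 0, and DESeq2 called 1 of 24, Il12rb1, which edgeR's filter left out. Of the 21, 16 had a negative log2 fold change, where 7102 of all 14118 tested genes did, and the median of the 21 was -0.27. The smallest unadjusted p, 0.0251, was that of Lifr, the receptor of Lif, at 353, 332 and 346 CPM in control and 296, 269 and 291 CPM in degenerated libraries. All 3 degenerated libraries lay below the controls, with a log2 fold change of -0.27 (SE 0.09, edgeR adjusted p = 0.439), where 7.37% of all tested genes lay below all controls.

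Among genes known to respond to Stat3, 22 of 26 were tested, 3 were called higher and none lower, and 7 lay above all controls. Over all tested genes these shares were 2.01% called higher and 10.3% above all controls. The list was chosen with earlier results of these data known, so that these shares are no test of it. The paper had named Serpina3n and Tnfrsf12a as the most significant genes of their chromosomes in SGN degeneration. The median log2 fold change of the list was 0.30, with 18 of the 22 positive. Tnfrsf12a, a receptor of the tumor necrosis factor family that injury induces, had 53.2, 60.1 and 66.0 CPM in control and 145, 163 and 202 CPM in degenerated libraries, with a log2 fold change of 1.51 (SE 0.17, edgeR adjusted p = 0.0884). DESeq2 alone also called Bcl3. Serpina3n, a secreted protease inhibitor of reactive glia and of the acute phase, had 5.76, 4.60 and 12.8 CPM against 134, 111 and 49.6 CPM, with a log2 fold change of 3.67 (SE 0.57, adjusted p = 0.211). Sprr1a, a small protein of regrowing axons, had 1.99, 0.14 and 1.53 CPM against 21.0, 22.8 and 27.5 CPM, with a log2 fold change of 4.27 (SE 0.85, adjusted p = 0.277). The 3 genes were called under each of 13 alternatives. Other pathways also induce genes of this list, and Il4ra and Osmr stand both here and among the receptors.

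**Figure D5:**
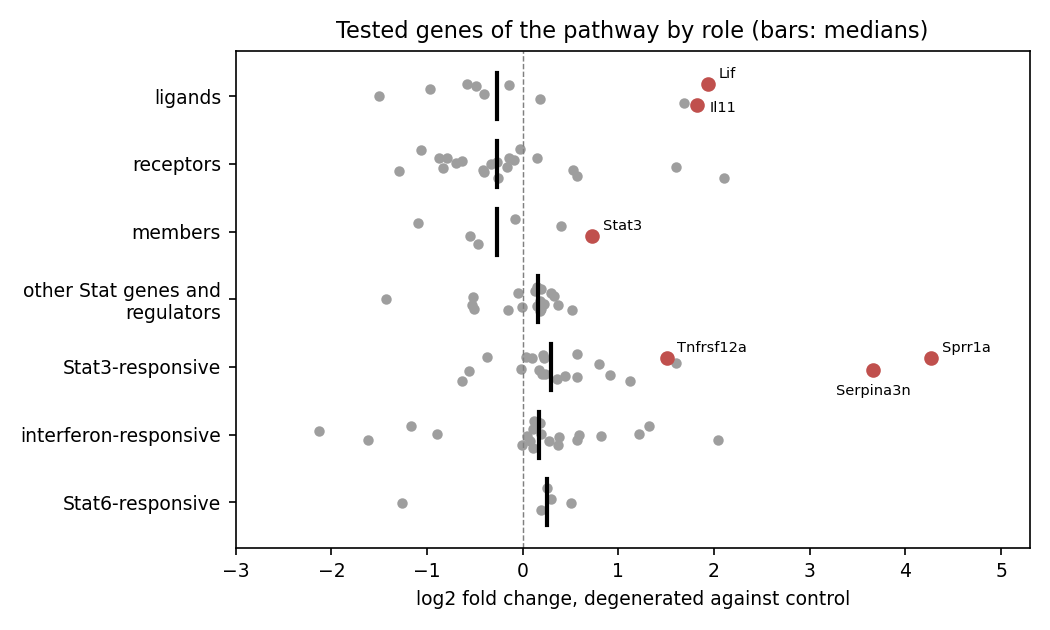
Log2 fold changes, degenerated against control, of the tested genes of the pathway, in rows by role. Each point is a gene, red points with names are the 6 called genes, and black bars are medians. All red points lie to the right of 0 and belong to the ligands, the members and the genes known to respond to Stat3.

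The genes that interferons induce, Stat2 being one of the transducers, are a list of 30. Of 22 tested genes 0 were called by edgeR, DESeq2 or limma-voom, 2 had an unadjusted p under 0.05 in edgeR's test, 17 were positive, and the median log2 fold change was 0.17. The smallest unadjusted p, 0.0301, was that of Xaf1, an interferon-induced gene with a log2 fold change of 0.59 (SE 0.21, edgeR adjusted p = 0.461), at 30.8, 21.4 and 23.0 CPM in control and 34.2, 38.2 and 40.7 CPM in degenerated libraries. Of 12 genes known to respond to Stat6, 5 were tested and 0 were called by any of the 3 tools, with none at an unadjusted p under 0.05. Their median log2 fold change was 0.26, and the smallest p, 0.191, was that of Tgm2, a transglutaminase, with a log2 fold change of 0.26. Whether the lists differ from each other was not tested.

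The 5 tested genes whose profile over the 6 libraries was most like that of Stat3 were A930004J17Rik, Lnx1, Grin1, Tiam2 and Rab14, among 8423 genes with a mean of at least 10 CPM. Likeness was the root mean square difference of log2(CPM + 1) after each gene's own mean was taken off, and it ran from 0.07 for A930004J17Rik to 0.10 for Rab14. A930004J17Rik had 10.6, 11.96 and 10.3 CPM in control and 18.9, 18.2 and 18.4 CPM in degenerated libraries. Grin1, a subunit of the NMDA receptor of neurons, had 21.2, 23.8 and 27.6 CPM against 41.0, 42.3 and 34.6 CPM. Tiam2, an activator of the small GTPase Rac1, had 27.9, 25.2 and 28.2 CPM against 44.1, 41.0 and 41.5 CPM. For Socs3, with its low counts, the most alike were Pou3f1, Pdia3, Mms19, Ddx60 and Tcf24, at differences of 0.08 to 0.12. The groups overlapped in each of these 5 genes. At 0.21 to 1.26 CPM, the 1 added before the log narrows the profile of Socs3 far more than that of genes above 10 CPM. These small differences therefore do not mean that the fold changes were alike.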

How the data were processed

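The 6 libraries of cochlear modiolus RNA, 3 control and 3 degenerated, were grouped by the labels. The authors aligned reads with Hisat2 and evaluated expression with StringTie, while the submitters' processing notes name Bowtie 0.12.2 and the builds mm8 and mm10. Counting step, annotation and strand setting: not given in the sources used here. Reads of overlapping genes on opposite strands may not have been told apart. The deposited table holds raw counts per Ensembl transcript without normalization. With its header it has 65536 lines, the row limit of an older spreadsheet format, so rows may have been cut off, and library totals and CPM cover the listed rows only. Of 65535 transcripts, 263 with 0.125% of the counts did not match GENCODE M21 (GRCm38) and were left out. The design had been written for counts per gene, so counts of listed transcripts were added up, and each transcript was also tested on its own. CPM use TMM-scaled library sizes, of genes or of transcripts.

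Tests were made in R 4.3.3 with edgeR 4.0.16 (filterByExpr, TMM, robust quasi-likelihood F test), without covariates, and p-values were adjusted over all genes or transcripts tested. The SE is the log2 fold change over the root of F. Transcript shares were tested with edgeR's diffSpliceDGE. Alternatives were DESeq2 1.42.0, limma-voom (limma 3.58.1), RLE normalization, no filter, a mean count of 10, a block for the replicate number, leaving out each library and, added after the data were seen, the neutrophil markers as a covariate. Steps were tested on simulated data. Named were all members, their transcripts with a mean of at least 1 CPM, other Stat genes, called genes of each list (or the smallest p), and the 5 genes most like Stat3 and Socs3. Socs3-202, Stat6-202 and Stat2-202, all below that mean, were chosen after their values were seen, as were the marker genes named. Of the lists, 2 genes are not reported here and were taken out. Members and lists were chosen with earlier results of these data known. Libraries correlated at 0.913 to 0.948 within groups (log2(CPM + 1)), and no library duplicated another.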

Additional observations from a re-analysis of the deposited data

How the results depend on the processing

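Over 35 single genes and transcripts and up to 13 alternatives each, 399 of 443 values kept their direction and their side of the criteria, 25 were no longer called, 8 became called and 11 changed sign, all 11 on leaving out 1 library. None of those 11 was of a called gene. Leaving out 1 library moved the log2 fold change of Stat2 between -0.36 and 0.17, of Tyk2 between -1.77 and 0.29, of Socs3 between -0.0072 and 1.25, of Stat2-204 between -0.34 and 1.07, of Tyk2-201 between -7.31 and 0.11, of Tyk2-202 between -0.65 and 1.5 and of Ddx60 between -0.18 and 0.30. With DESeq2, which tested 22604 genes, 465 genes were called higher and 310 lower, against 284 and 101, and 749 and 598 transcripts, against 296 and 170. The cause was not tested. With DESeq2 or without the filter, 2 members were called, the second being Stat6. Leaving out 1 library gave 144 to 339 genes called higher, 76 to 158 lower, 211 to 412 transcripts higher, 152 to 230 lower, 1 member, and 299 to 356 transcripts with a changed share, against 200. That last count was 688 without a filter and 327 at a mean count of 10. With degenerated replicate 2 left out, 144 genes were called higher, with control replicate 3, 171, with degenerated replicate 3, 179, and with control replicate 1, 158 lower. Replicate numbers did not pair the libraries (correlations of same-numbered deviations 0.16, -0.09 and 0.07). With the replicate number as a block, 160 genes were called higher and 58 lower, and 138 and 83 transcripts. Of 34 single genes and transcripts, 30 kept their direction and their side of the criteria in the block fit, whether called or not. Stat3 kept its call. Grin1, Tiam2 and Rab14 lost it, and Stat3-202 gained it (log2 fold change 0.99, unadjusted p = 0.00694). Counts limit Stat6 (27), Socs3 (66) and Jak1 (142), whose intervals or floors allow large changes.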
